A study of Mus musculus with 12 samples.

Results

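The genes described here are 10 genes of the Hippo pathway and its transcriptional effectors YAP and TAZ: Yap1, Wwtr1 (which encodes TAZ), Tead1, Lats1, Lats2, Nf2, Amot, Amotl2, Stk3 and Sav1. They were chosen by name, as listed YAP/TAZ, TEAD and Hippo kinase genes, with earlier results of these data known. All 10 were found by symbol among the 27866 genes of the ACSA-2 table and the 30359 genes of the CD11b table. The study asked what a rise of the adenosine A2A receptor in hippocampal astrocytes does to the cells of the hippocampus. Male C57Bl6/J mice received a bilateral injection of an AAV2/9 vector in CA1 at 2 months of age, and hippocampal cells were sorted magnetically at 4 months of age, 2 months post-injection. The AAV-A2A vector carries the murine Adora2a gene and the AAV-GFP vector, the control, carries GFP, both under GfaABC1D, an astrocyte-selective promoter derived from the Gfap gene. RNA of ACSA-2-positive cells (astrocyte-enriched) was sequenced from 3 AAV-A2A libraries (A2A-309, A2A-310, A2A-313) and 3 AAV-GFP libraries (GFP-303, GFP-306, GFP-307). RNA of CD11b-positive cells (microglia-enriched) was sequenced from 3 AAV-A2A libraries (A2A-2343, A2A-2344, A2A-2347) and 3 AAV-GFP libraries (GFP-2328, GFP-2329, GFP-2331). For the astrocyte data the study's supplement gives 3 animals per group, as many as there are ACSA-2 libraries, whereas for the CD11b libraries the number of animals was not found in the sources used here, so that p values in that fraction measure only the spread between these libraries. Both hippocampi were dissociated for the sort, astrocytes were taken with ACSA-2 beads, and the CD11b cells were taken from what those beads had left.

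The Hippo pathway is a kinase cascade that restrains the coactivators YAP and TAZ. In its core, the kinase MST2 (Stk3) with its scaffold SAV1 activates the kinases LATS1 and LATS2, which phosphorylate YAP and TAZ and hold them in the cytoplasm, while merlin (Nf2) acts upstream and angiomotins (Amot, Amotl2) bind YAP and TAZ at junctions and the actin cytoskeleton. YAP and TAZ that enter the nucleus bind TEAD factors on DNA and raise the transcription of target genes, and in the adult brain they are found mainly in astrocytes, endothelial cells and other non-neuronal cells.

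The promoters of Yap1 and Wwtr1 are shown because both genes fell with the A2A vector in the ACSA-2 fraction, and those of Axl and Crim1 because they were the YAP/TAZ target genes that fell with them. Each sequence holds the 250 bases before the annotated start of the gene, 5′ to 3′ on the gene's own strand (RefSeq, GRCm38.p6), and capitals mark the core of the TEAD binding motif (GGAATG, or CATTCC on the other strand).
Yap1 (chr9:8004597-8004846, minus strand): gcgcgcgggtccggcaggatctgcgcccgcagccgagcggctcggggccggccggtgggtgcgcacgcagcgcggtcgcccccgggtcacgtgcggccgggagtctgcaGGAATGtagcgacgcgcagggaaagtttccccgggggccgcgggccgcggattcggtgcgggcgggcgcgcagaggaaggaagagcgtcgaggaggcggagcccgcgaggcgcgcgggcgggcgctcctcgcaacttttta
Wwtr1 (chr3:57575911-57576160, minus strand): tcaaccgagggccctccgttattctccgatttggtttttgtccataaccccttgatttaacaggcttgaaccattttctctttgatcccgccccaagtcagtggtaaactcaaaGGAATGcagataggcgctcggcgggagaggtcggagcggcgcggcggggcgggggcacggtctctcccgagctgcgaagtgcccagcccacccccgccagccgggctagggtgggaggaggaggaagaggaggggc
Axl (chr7:25788734-25788983, minus strand): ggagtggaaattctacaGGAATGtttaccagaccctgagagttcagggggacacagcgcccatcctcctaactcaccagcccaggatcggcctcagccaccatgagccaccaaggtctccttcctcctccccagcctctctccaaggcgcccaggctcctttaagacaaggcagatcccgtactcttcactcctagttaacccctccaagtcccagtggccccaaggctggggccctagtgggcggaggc
Crim1 (chr17:78199998-78200247, plus strand): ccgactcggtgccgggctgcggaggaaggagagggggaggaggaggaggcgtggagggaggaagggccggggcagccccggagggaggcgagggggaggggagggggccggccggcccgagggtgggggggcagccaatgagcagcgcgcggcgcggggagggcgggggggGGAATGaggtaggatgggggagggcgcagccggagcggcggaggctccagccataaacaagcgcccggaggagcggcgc
The motif began 141 bases before the start in Yap1, 136 in Wwtr1, 233 in Axl and 79 in Crim1, each time on the gene's own strand. A promoter window was given for 8 of the 10 Hippo genes (11 windows in all, some genes having more than 1 start), and the motif was found on either strand in 4 of these genes, the other ones being Amotl2 and Sav1. It was found in 5 of the 11 windows (45.5%), against 12.6% of the 32817 windows of the same length over all genes. The 2 windows of Wwtr1 overlap and hold the same site, which is counted in both. The full cAMP response element (TGACGTCA, its own reverse complement) was in 0 of the 11 windows and in 1.55% of all windows. A match of so few letters is a description of the sequence and does not show that a factor binds there.

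Reads counted on genes numbered 33937067 to 49217553 in the ACSA-2 libraries and 36098295 to 53206974 in the CD11b libraries. Values are given as CPM, the read count of a gene scaled by library size, with TMM factors for the 12 libraries together. Adora2a, the gene carried by the vector, had 23.2 to 25.6 CPM in the AAV-GFP and 655 to 927 CPM in the AAV-A2A libraries of the ACSA-2 fraction, a 32.5-fold difference (log2 fold change 5.02 ± 0.21, SE, adjusted p = 1.55e-05). In the CD11b fraction it had 3.77 to 8.30 CPM with GFP and 14.97 to 45.2 CPM with A2A, without overlap, and was not called by edgeR (2.20 ± 0.54, adjusted p = 0.28) but was by DESeq2 (adjusted p = 0.0232). The summed level of 11 astrocyte markers was at least 24442 CPM in ACSA-2 libraries and at most 603 CPM in CD11b libraries. That of 9 microglia markers was 278 to 530 CPM in ACSA-2 libraries and 7561 to 62217 CPM in CD11b libraries, so each fraction was enriched in the cells of its label. In the CD11b fraction 3 libraries stood apart by 9 choroid plexus markers, whose sum was 75515 CPM in GFP-2328, 62451 in GFP-2329 and 30488 in A2A-2347 (choroid plexus-rich) and 101.5 in GFP-2331, 77.0 in A2A-2343 and 11.6 in A2A-2344. In these 3 libraries choroid plexus markers outweighed microglia markers (7561, 15334 and 21288 CPM), which summed to 50916 to 62217 CPM in the other 3. In bulk libraries such as these, fewer cells of a type and less RNA per cell cannot be told apart.

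Wwtr1 was the most abundant Hippo gene in the ACSA-2 fraction of AAV-GFP controls, and it was several times higher there than in the CD11b fraction. Levels of different genes are compared as CPM per kilobase of exon. In the ACSA-2 fraction Wwtr1 was at 40.1 ± 5.66 (SD, n = 3), far from all the others. Amotl2 (5.07 ± 0.318), Yap1 (4.51 ± 0.936) and Stk3 (4.27 ± 0.515) followed, and these neighbours lay within their spread of one another. Below them came Amot (2.19 ± 0.257), Tead1 (1.47 ± 0.383), Nf2 (1.45 ± 0.652), Lats1 (1.20 ± 0.365), Lats2 (1.19 ± 0.675) and Sav1 (1.05 ± 0.0551). From Tead1 to Sav1 each neighbouring pair overlapped. On this scale every ACSA-2 control had more Wwtr1 and Yap1 than Lats1 or Lats2. In the CD11b fraction the order was Wwtr1 (8.83 ± 4.21), Stk3 (6.24 ± 0.440), Nf2 (4.32 ± 1.28), Amotl2 (3.35 ± 1.95), Yap1 (2.74 ± 2.20), Lats2 (1.90 ± 0.246), Lats1 (1.26 ± 0.212), Sav1 (0.958 ± 0.153), Tead1 (0.754 ± 0.613) and Amot (0.521 ± 0.598). In the CD11b controls the range of Stk3 lay above that of Nf2 and the range of Lats2 above that of Lats1. The ranges of the other neighbours overlapped, although within each of these libraries Nf2 was above Amotl2, Amotl2 above Yap1 and Tead1 above Amot. Counts of 2 genes are uncertain, since 42.4% of the exon bases of Lats2 and 25.4% of those of Sav1 are shared with another annotated gene (Gm49361 and Atl1, respectively), and reads that fell on 2 genes were not counted.

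**Figure D1:**
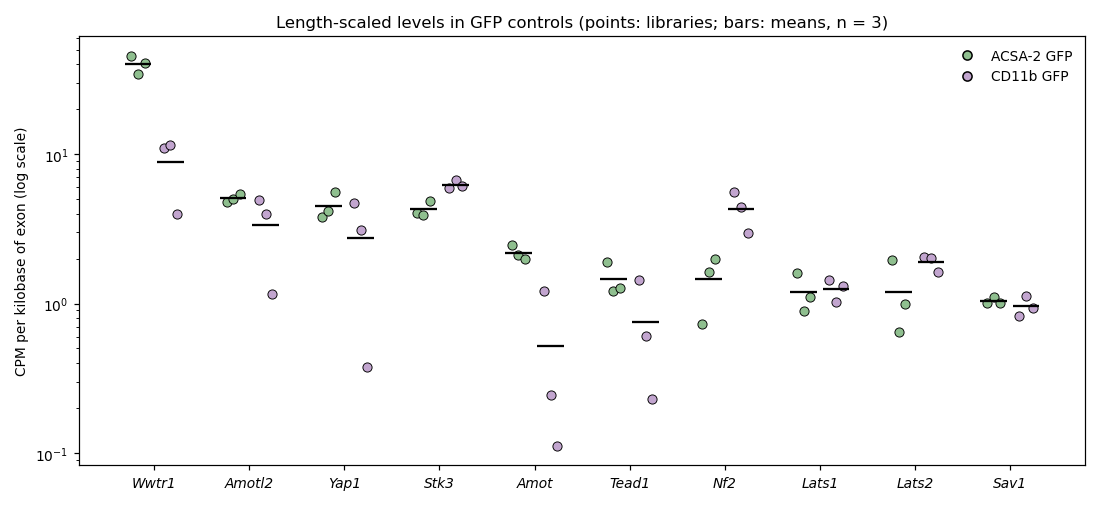
Level of each Hippo gene in the AAV-GFP controls of both fractions, in CPM per kilobase of exon on a log axis. Points are libraries and bars are means of 3. Wwtr1 is above all the other genes in ACSA-2 libraries, and for Yap1, Amot, Tead1, Amotl2, Wwtr1, Nf2 and Lats2 the lowest CD11b library is GFP-2331.

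Between the controls of the 2 fractions, 2 of the 10 Hippo genes passed the test, 1 in each direction, where 26.7% of the 18602 genes tested did (12.3% higher and 14.4% lower in ACSA-2). Genes are called here when the Benjamini-Hochberg adjusted p over all tested genes is under 0.05 and the absolute log2 fold change over 0.32, the thresholds of the study. Wwtr1 had 218, 164 and 194 CPM in the ACSA-2 and 52.7, 54.8 and 19.0 CPM in the CD11b controls, without overlap. It was 4.54-fold higher in ACSA-2 (log2 fold change 2.18 ± 0.41, SE, adjusted p = 0.00297). Nf2, which encodes merlin, had 4.98, 11.1 and 13.6 CPM in ACSA-2 and 37.8, 30.2 and 20.4 CPM in CD11b controls, again without overlap. It was 2.98-fold lower in ACSA-2 (log2 fold change -1.57 ± 0.52, adjusted p = 0.043). The median log2 fold change was 0.36 over the Hippo genes and -0.11 over all tested genes. Fraction and library series differ together here and cannot be told apart, and whether the 2 fractions share animals is not given. The sum of 7 mural cell markers was 4836 to 4922 CPM in the ACSA-2 and 708 to 1922 CPM in the CD11b controls. That of 9 endothelial markers was 534 to 611 and 669 to 1677 CPM. The part of these cells in the levels of the Hippo genes was not tested.

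The level of Yap1, Tead1, Amot and Amotl2 in the CD11b controls depended on the library. Wwtr1, Nf2 and Lats2 were lowest in GFP-2331 too (19.0, 20.4 and 11.2 CPM). Yap1 had 43.7 and 28.9 CPM in the choroid plexus-rich libraries GFP-2328 and GFP-2329 and 3.47 CPM in GFP-2331. With the 3 choroid plexus-rich libraries left out, an alternative added after the data had been seen, 5 Hippo genes were called, all higher in ACSA-2, against 25.3% of the 20405 genes tested in that fit (12.5% higher). These were Yap1 (log2 fold change 3.56, adjusted p = 0.000923), Amot (4.26, 0.0036), Wwtr1 (3.31, 0.000614), Tead1 (2.64, 0.0447) and Amotl2 (2.10, 0.0315). This leaves 1 CD11b control, so its spread is taken from the other groups. Nf2 was then not called (-1.06, adjusted p = 0.276), nor was it with limma-voom (adjusted p = 0.0684). Its call also ended, at adjusted p values of 0.05 to 0.138, without any 1 of GFP-303, GFP-306, GFP-307, A2A-309, A2A-310, A2A-313, GFP-2328, GFP-2329 and A2A-2344. Wwtr1 was called in all 12 fits that left out 1 library.

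Yap1 and Wwtr1, the 2 coactivators at the end of the pathway, both fell with the A2A vector in the ACSA-2 fraction. No other Hippo gene passed the test, and none rose. Of the 16451 genes tested, 3.36% were called and 3.19% were called lower, against 2 of 10 Hippo genes, both lower. In 4 genes (Yap1, Wwtr1, Amot and Sav1) every AAV-A2A library was below every AAV-GFP library, which held for 10.9% of all tested genes, the groups being apart in either direction for 19.6%. At an unadjusted p under 0.05 stood 3 of the 10 genes and 13% of all genes. Of the 10 genes 8 had a log2 fold change below 0 (6 with length and GC trends removed, Lats2 and Amotl2 turning), with a median of -0.41 against 0.02 over all tested genes. The genes were chosen with earlier results known, and the study had reported the fall of Yap1 in these data. These shares and medians therefore describe the list and are not a test of it.

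Yap1 (ENSMUSG00000053110, chromosome 9, 7931999 to 8004596, minus strand, GRCm38) had 35.3, 38.2 and 51.6 CPM in GFP-303, GFP-306 and GFP-307. In A2A-309, A2A-310 and A2A-313 it had 20.5, 16.6 and 17.2 CPM. The highest AAV-A2A library thus lay below the lowest AAV-GFP library. The change was 2.26-fold (log2 fold change -1.18 ± 0.24, SE, n = 3 per group, edgeR adjusted p = 0.0279).

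Wwtr1 (ENSMUSG00000027803, chromosome 3, 57455649 to 57575910, minus strand) had 218, 164 and 194 CPM in the AAV-GFP libraries and 106, 60.1 and 70.5 CPM in the AAV-A2A libraries. The groups did not overlap here either, and the lowest control was above the highest AAV-A2A library by more than 50 CPM. The change was 2.39-fold (log2 fold change -1.26 ± 0.23, adjusted p = 0.0169).

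Each call ended without any 1 of 5 of the 6 libraries. The adjusted p of Yap1 stayed under 0.05 without GFP-303 (0.0409) and was 0.0852 without GFP-306, 0.135 without GFP-307, 0.0695 without A2A-309, 0.115 without A2A-310 and 0.0975 without A2A-313. That of Wwtr1 stayed under it without A2A-309 (0.0109) and was 0.0692, 0.0518, 0.0649, 0.0729 and 0.0786 without GFP-303, GFP-306, GFP-307, A2A-310 and A2A-313, respectively. Over these fits the log2 fold change went from -1.30 to -1.002 for Yap1 and from -1.51 to -1.097 for Wwtr1. DESeq2, the test of the study, called both genes (adjusted p = 7.78e-05 for Yap1 and 2.95e-05 for Wwtr1) and so did limma-voom (0.0272 and 0.00893), whereas a fit that shared its spread with the CD11b libraries called neither (0.786 and 0.238). Correcting the counts for length and GC content of the genes left Yap1 just short of a call (log2 fold change -0.996, adjusted p = 0.0536) and Wwtr1 called (0.0208).

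**Figure D2:**
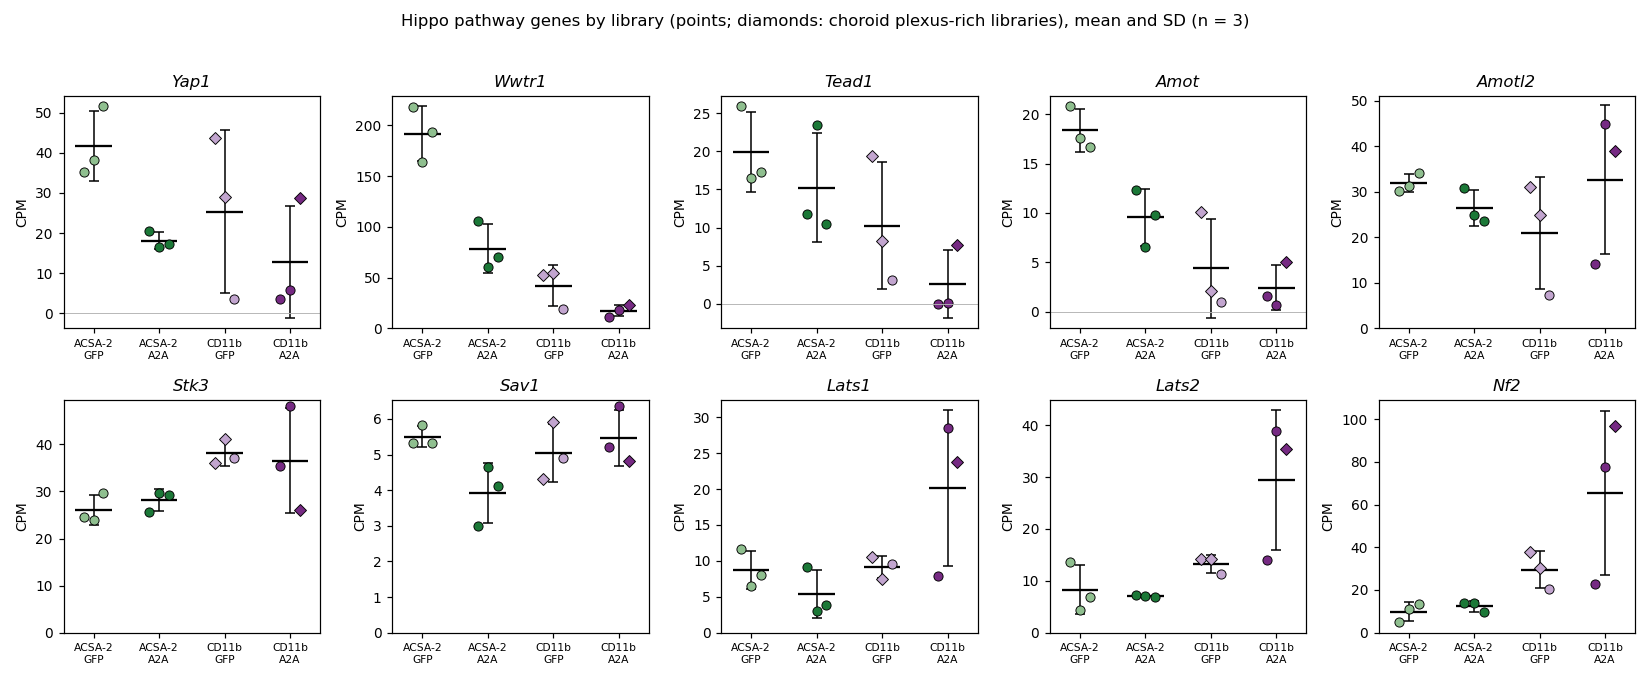
CPM of the 10 Hippo genes in each of the 12 libraries, by fraction and vector, with the group mean and SD (n = 3). Diamonds are the 3 choroid plexus-rich CD11b libraries. In the ACSA-2 fraction the AAV-A2A points of Yap1, Wwtr1 and Amot all lie below the AAV-GFP points, and in the CD11b fraction the Yap1 diamonds lie far above the circles.

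Of the angiomotins, which tether YAP and TAZ outside the nucleus, Amot had 20.8, 17.6 and 16.7 CPM in the AAV-GFP and 12.3, 6.52 and 9.80 CPM in the AAV-A2A libraries. The groups did not overlap, but the difference missed the threshold (log2 fold change -0.92 ± 0.32, adjusted p = 0.223). Its relative Amotl2, itself a YAP target gene, overlapped between the groups (23.5 to 30.8 against 30.3 to 34.1 CPM), with a log2 fold change of -0.24 ± 0.22. Tead1, the DNA-binding partner of both coactivators, spanned 10.5 to 23.4 CPM with A2A and 16.5 to 25.9 CPM with GFP and overlapped as well (-0.36 ± 0.37, adjusted p = 0.79).

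The kinases and their scaffolds did not pass the test. Lats1 had 11.7, 6.47 and 8.04 CPM in AAV-GFP and 9.18, 2.98 and 3.89 CPM in AAV-A2A libraries (log2 fold change -0.68 ± 0.49, adjusted p = 0.667). Lats2, of which the 3 AAV-A2A libraries (6.97 to 7.33 CPM) fell inside the range of the controls (4.46 to 13.6 CPM), had a log2 fold change of -0.19 ± 0.44. Stk3, which encodes MST2, was at 24.0 to 29.7 CPM in controls and 25.6 to 29.7 CPM with A2A (0.14 ± 0.22). Sav1, its scaffold, had 5.34 to 5.84 CPM in controls and 2.995 to 4.66 CPM with A2A, without overlap, at a log2 fold change of -0.46 ± 0.43 (adjusted p = 0.765). Nf2 was the Hippo gene with the highest log2 fold change, 0.35 ± 0.41 (4.98 to 13.6 CPM in controls and 9.51 to 13.8 CPM with A2A).

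**Figure D3:**
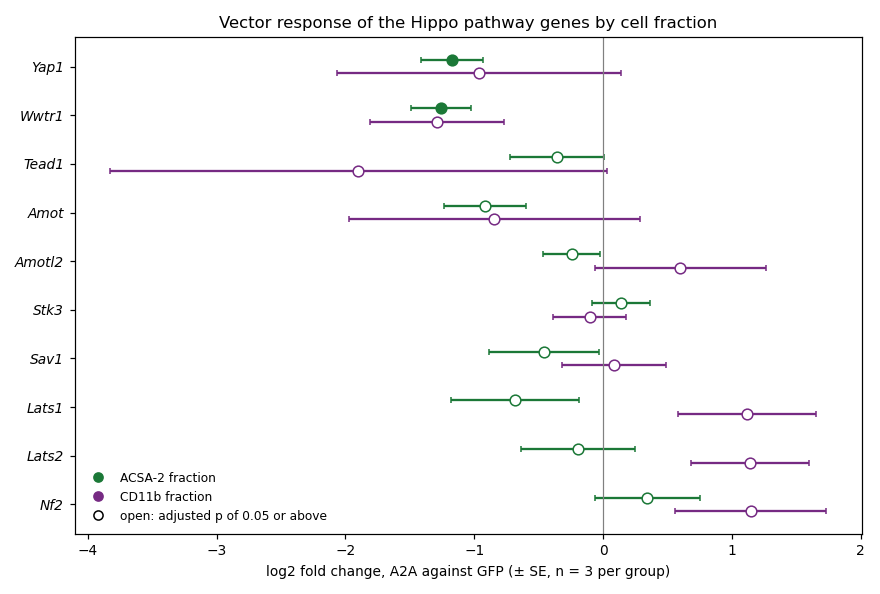
Log2 fold change of each Hippo gene between AAV-A2A and AAV-GFP in the ACSA-2 (green) and CD11b (purple) fractions, with SE (3 libraries per group). Filled points passed the adjusted p threshold. Only Yap1 and Wwtr1 in the ACSA-2 fraction are filled, and the error bars of Yap1, Tead1 and Amot are several times wider in the CD11b fraction.

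The other genes of the pathway were 25 listed regulators and cofactors. Of the 24 tested in the ACSA-2 fraction 0 were called by edgeR (1 at an unadjusted p under 0.05), and their median log2 fold change was 0.01. The gene nearest to the threshold was Vgll4, a cofactor that competes with YAP for TEAD. It had 36.2, 39.9 and 37.5 CPM in AAV-GFP and 91.0, 58.0 and 62.6 CPM in AAV-A2A libraries, without overlap, and a log2 fold change of 0.92 ± 0.22 (adjusted p = 0.0568). It was called higher with DESeq2 (adjusted p = 0.00242), without the filter on low counts (0.0444) and with length and GC trends removed (0.0129). Wwc1, which encodes the scaffold KIBRA and was the most abundant of this list in ACSA-2 libraries, was at 51.5 to 86.6 CPM in controls and 49.3 to 73.6 CPM with A2A (log2 fold change -0.22 ± 0.25). The casein kinases Csnk1d (-0.06 ± 0.21) and Csnk1e (0.18 ± 0.19), which take part in the degradation of YAP, overlapped between the groups. Tead4 did not pass the filter on low counts, with a mean of 0.0356 CPM in controls.

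Of the 22 listed YAP/TAZ target genes, 21 were tested, and Ankrd1 was in neither table. Amotl2 and Lats2, counted above among the 10 Hippo genes, are among the 21. The 2 that were called (9.52%) were both lower with A2A, against 3.36% of all tested genes called and 3.19% called lower. The median log2 fold change of the tested targets was -0.31, against 0.02 over all tested genes, 15 of the 21 being below 0. This list, too, was chosen with earlier results of these data known, so its shares are a description. Crim1, a transmembrane protein that binds growth factors of the BMP family, had 140, 181 and 222 CPM in AAV-GFP and 54.2, 27.7 and 33.4 CPM in AAV-A2A libraries. The control libraries were all above the A2A libraries and the change was 4.64-fold (log2 fold change -2.21 ± 0.28, adjusted p = 0.00338). Axl, a receptor tyrosine kinase that takes part in the uptake of cell debris, had 433, 461 and 506 CPM in AAV-GFP and 213, 141 and 194 CPM in AAV-A2A libraries. It was 2.51-fold lower, again without overlap (log2 fold change -1.33 ± 0.19, adjusted p = 0.00567). Both calls held without any single library of this fraction, with an adjusted p of at most 0.0355 for Axl and 0.0246 for Crim1, but in the fit that shared its spread with the CD11b libraries Axl was not called (0.0774) and Crim1 was (0.0177). Their promoters and those of Yap1 and Wwtr1, shown above, each hold 1 TEAD core motif. Genes that were not called hold it too, among them Ccn1, Amotl2, Sav1 and Vgll4. It was in 6 of 18 windows of the target genes (33.3%) and 8 of 25 windows of the other Hippo genes (32%), against 12.6% of all windows. Of those other Hippo genes 0 were called. Whether the motif bears on the fall was not tested.

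Among the other targets F3 and Fjx1, the most abundant ones, overlapped between the vectors. F3, which encodes tissue factor, had 1522 to 2094 CPM in controls and 1449 to 2767 CPM with A2A (log2 fold change 0.22 ± 0.25). Fjx1, a Golgi kinase, was at 551 to 634 and 476 to 867 CPM (0.19 ± 0.23). Ccn1, which encodes a matricellular protein and is a classical YAP target, had 154 to 187 CPM in controls and 129 to 230 CPM with A2A (0.10 ± 0.22). Its relative Ccn2, named after its values were seen, had a log2 fold change of -0.85 ± 0.33 (adjusted p = 0.298). Neither of these CCN genes passed the test.

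**Figure D4:**
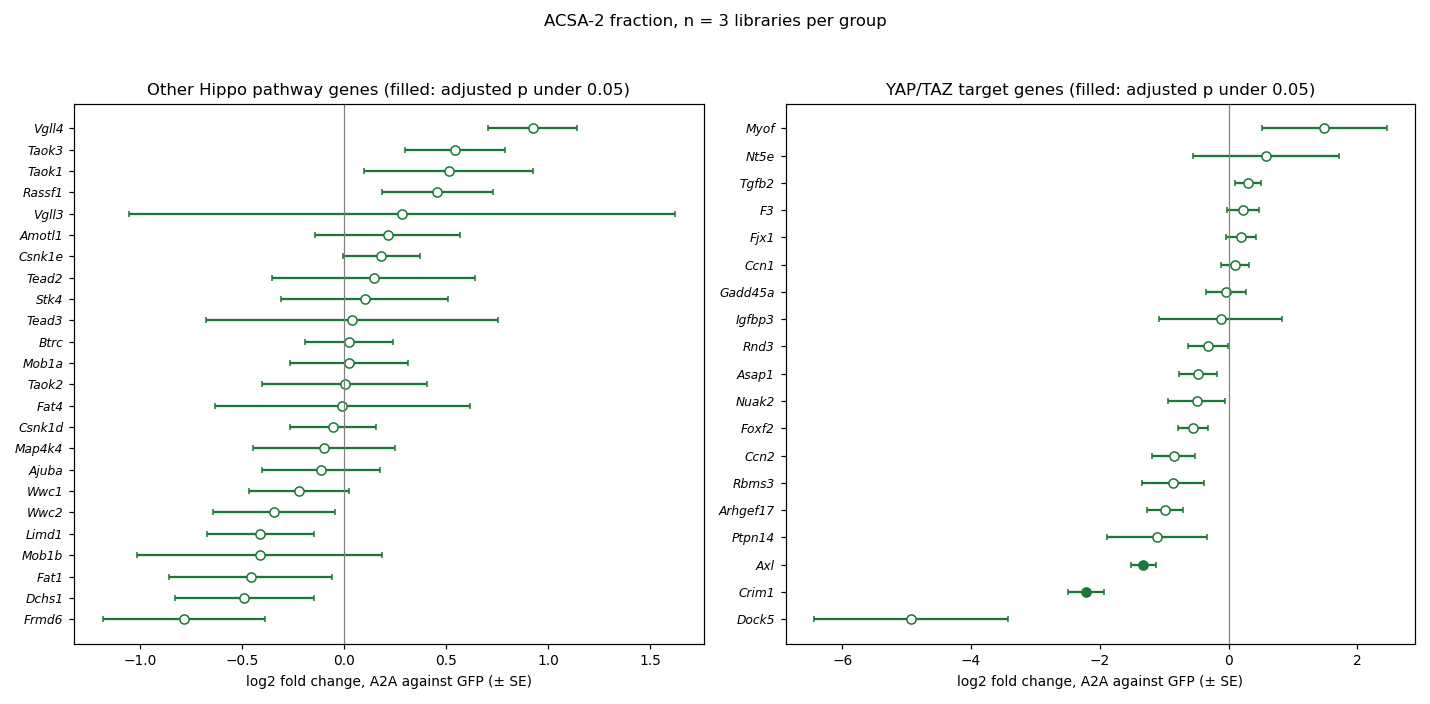
Log2 fold change with SE (3 libraries per group) between AAV-A2A and AAV-GFP in the ACSA-2 fraction for the other Hippo pathway genes (left) and the YAP/TAZ target genes other than Amotl2 and Lats2 (right). Filled points passed the adjusted p threshold. Axl and Crim1 are filled, and the wide bar of Dock5 belongs to a gene with a mean of 1.95 CPM in controls.

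Cdk6, a cell cycle kinase that the study ties to YAP, fell much further than Yap1. It had 42.1, 44.3 and 53.7 CPM in AAV-GFP and 5.26, 5.91 and 3.84 CPM in AAV-A2A libraries of the ACSA-2 fraction, far apart. The change was 9.17-fold (log2 fold change -3.20 ± 0.27, adjusted p = 0.00106). In the CD11b fraction the groups overlapped (21.5 to 85.2 CPM with GFP and 23.9 to 67.2 CPM with A2A, log2 fold change -0.15 ± 0.60).

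Markers of other cells were summed beside these results, since several of those cells also contain YAP and TAZ. In the ACSA-2 fraction the sum of 4 oligodendrocyte precursor markers moved with the vector, from 195 to 305 CPM in controls to 55.6 to 85.9 CPM with A2A, but nearly all of it was Cspg4 (190 to 296 and 44.9 to 71.2 CPM, log2 fold change -2.17, adjusted p = 0.00226), a gene that mural cells contain too. Pdgfra, which defines these precursors, was at 4.16 to 7.52 CPM in controls and 4.30 to 4.54 CPM with A2A, and Gpr17 was at 0 in 4 of the 6 libraries. The sums of the 7 mural markers (4836 to 4922 and 3534 to 5070 CPM), 9 endothelial markers (534 to 611 and 340 to 615 CPM), 5 fibroblast markers (180 to 292 and 136 to 228 CPM) and 11 astrocyte markers (24976 to 29243 and 24442 to 37463 CPM) overlapped between the vectors. Single markers within these sums did not all overlap. Over all tested genes, 10.9% were lower with A2A without overlap, 19.6% were apart in either direction and 3.19% were called lower. Of the 9 endothelial markers 3 were lower with A2A in every library, and 1 of them, the VEGF receptor Flt1 (160 to 197 CPM with GFP and 46.0 to 77.5 CPM with A2A), was called (log2 fold change -1.66 ± 0.24, adjusted p = 0.00523). The others were Pecam1 (adjusted p = 0.603) and Kdr (0.43). Cldn5, Ly6c1, Slco1a4 and Emcn had log2 fold changes above 0 (0.05, 0.009, 0.35 and 0.06). Cdh5 (-2.62 ± 0.81) and Tek (-1.25 ± 0.56) lay below 0 and overlapped between the vectors. Of the 7 mural markers Abcc9 alone was lower in every library (49.1 to 52.8 and 13.8 to 31.3 CPM, log2 fold change -1.18 ± 0.29, adjusted p = 0.0683), and of the 5 fibroblast markers Col3a1 (adjusted p = 0.302). Of the astrocyte markers Atp1b2 was called lower (-0.95 ± 0.20, adjusted p = 0.0294), and of the microglia markers Sall1 (-1.74 ± 0.40, adjusted p = 0.0493). In the other direction, Aqp4 was higher with A2A in every library (406 to 432 and 500 to 646 CPM, 0.44 ± 0.17, adjusted p = 0.279). Gfap was at 0.70 ± 0.27 (adjusted p = 0.285) with overlap (848 to 1275 and 1202 to 2355 CPM), and neither gene was called. The sum of the 9 choroid plexus markers was slightly higher with A2A (596 to 649 and 659 to 1086 CPM). Most of it was Ttr, which overlapped between the vectors (467 to 535 and 513 to 891 CPM, adjusted p = 0.262). Sostdc1 was higher in every library (10.4 to 19.1 and 21.3 to 63.3 CPM, adjusted p = 0.0896). Kl, Clic6 and Otx2 had log2 fold changes of -1.44, -0.50 and -0.75, the others lay above 0, and none of the 9 was called. The part of these cells in the fall of Yap1 and Wwtr1 was not tested.

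In the CD11b fraction no Hippo gene was called, nor was any of the 16949 genes tested (0% by edgeR and by limma-voom, while DESeq2 called 502 genes and no Hippo gene). At an unadjusted p under 0.05 stood 2 of the 10 Hippo genes, Wwtr1 and Lats2, against 16% of all tested genes. The median log2 fold change was -0.01 over the Hippo genes and -0.05 over all tested genes, and 5 genes lay on each side of 0.

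Wwtr1 had 52.7, 54.8 and 19.0 CPM in GFP-2328, GFP-2329 and GFP-2331 and 11.7, 18.2 and 22.7 CPM in A2A-2343, A2A-2344 and A2A-2347. GFP-2331 lay inside the range of the AAV-A2A libraries, and the log2 fold change was -1.29 ± 0.52 (adjusted p = 0.305). Without the choroid plexus-rich libraries it was -0.36. Yap1 had 43.7, 28.9 and 3.47 CPM with GFP and 3.71, 5.86 and 28.8 CPM with A2A (log2 fold change -0.96 ± 1.102, adjusted p = 0.689). Its 3 high libraries were the choroid plexus-rich ones, whichever vector they carried, and without them the sign turned (0.44). Tead1 showed the same split, with 19.4, 8.19 and 7.75 CPM in the choroid plexus-rich libraries and 3.13 CPM in GFP-2331. Its log2 fold change was -1.90 ± 1.93 (adjusted p = 0.651), and -6.06 without the choroid plexus-rich libraries (adjusted p = 0.247), where the AAV-A2A libraries left are those at 3 and 0 counts. It had 3 counts in A2A-2344 and 0 counts in A2A-2343, where 3 counts, the level a count of 0 allows, are 0.0855 CPM. Amot had 10.1, 2.06 and 5.003 CPM in the choroid plexus-rich and 0.94, 1.63 and 0.65 CPM in the other libraries, and its log2 fold change went from -0.84 ± 1.13 to 0.25 without the choroid plexus-rich ones. What part choroid plexus cells had in these levels was not tested.

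**Figure D5:**
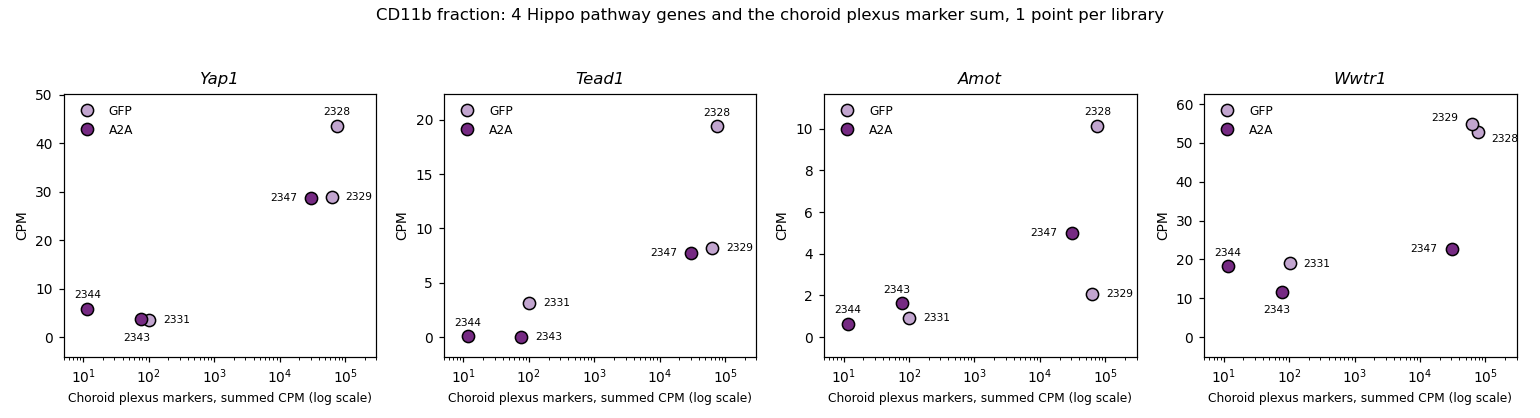
CPM of Yap1, Tead1, Amot and Wwtr1 in the 6 CD11b libraries against the summed CPM of 9 choroid plexus markers (log axis). Each point is 1 library, labelled by its number and coloured by vector. Yap1 and Tead1 are high in the 3 libraries on the right, GFP-2328, GFP-2329 and A2A-2347, and low in the 3 on the left.

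Lats1, Lats2 and Nf2 had the highest log2 fold changes of the 10 genes in the CD11b fraction, and none was called. Lats1 had 10.5, 7.48 and 9.50 CPM with GFP and 7.84, 28.6 and 23.8 CPM with A2A (log2 fold change 1.12 ± 0.54, adjusted p = 0.357). Lats2 had 14.3, 14.1 and 11.2 CPM with GFP and 14.1, 38.8 and 35.4 CPM with A2A (1.14 ± 0.46, adjusted p = 0.305). Nf2 had 37.8, 30.2 and 20.4 CPM with GFP and 22.6, 77.4 and 96.6 CPM with A2A (1.15 ± 0.59, adjusted p = 0.379). For all 3 genes the same libraries, A2A-2344 and A2A-2347, were high and A2A-2343 lay within or near the controls, so the groups overlapped. A2A-2347 is choroid plexus-rich and A2A-2344 is not. Without the choroid plexus-rich libraries the log2 fold changes were 0.92, 1.22 and 1.28, none of them called. Amotl2 (0.60 ± 0.66), Stk3 (-0.10 ± 0.28) and Sav1 (0.09 ± 0.40) overlapped between the groups as well.

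The wider pathway lists gave no call in the CD11b fraction with edgeR. Of the 25 other Hippo genes, all tested, 20 had a log2 fold change above 0 and the median was 0.57, against -0.05 over all tested genes. At an unadjusted p under 0.05 stood 4 of the 25, a share no higher than the 16% of all tested genes. Mob1a, a coactivator of the LATS kinases, had 34.2, 51.2 and 106 CPM with GFP and 187, 298 and 163 CPM with A2A. Its groups did not overlap, as was so for 23.4% of all tested genes (log2 fold change 1.74 ± 0.47, adjusted p = 0.28). Stk4, the second MST kinase, had 13.1, 15.4 and 39.0 CPM with GFP and 50.9, 141 and 78.9 CPM with A2A, also without overlap (2.00 ± 0.55, adjusted p = 0.28), and was called by DESeq2 (adjusted p = 0.0485). Both were lowest in GFP-2328 and GFP-2329, the 2 libraries with the lowest microglia marker sums. A2A-2347, with the next lowest sum (21288 CPM), was above GFP-2331 (55647 CPM) in both genes. The part of cell content in these levels was not tested. The median of the 21 target genes was 0.06. In this fraction Axl lay on the other side of 0 than in the ACSA-2 fraction, with 28.1, 25.2 and 48.5 CPM with GFP and 109, 169 and 156 CPM with A2A (2.08 ± 0.36, adjusted p = 0.28 with edgeR and 0.00236 with DESeq2). Ccn1 was high in 2 of the 3 choroid plexus-rich libraries, with 291 and 269 CPM in GFP-2328 and GFP-2329 and 24.6 to 61.5 CPM in the other 4 libraries (log2 fold change -2.35 ± 0.77, adjusted p = 0.28, and 0.0039 on the log2 scale without the choroid plexus-rich libraries). Wwc1 too was high in the choroid plexus-rich libraries (111.6, 73.2 and 199.9 CPM) and low in the others (9.11 to 20.7 CPM).

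Whether the A2A vector acted differently in the 2 fractions was tested directly, as the difference between the 2 log2 fold changes in a fit of all 12 libraries. No Hippo gene was called, against 0.403% of the 18602 genes tested (0.0376% higher and 0.366% lower), and 1 was under an unadjusted p of 0.05 (Lats1, difference -1.84 ± 0.77, adjusted p = 0.216). For Wwtr1 the difference was -0.02 ± 0.57 and for Yap1 it was -0.22 ± 1.15, an error that leaves room for effects in either direction. For Lats2 it was -1.38 ± 0.65 (adjusted p = 0.265). None of the 25 other Hippo genes was called, and of the 21 target genes Axl alone was (-3.44 ± 0.44, adjusted p = 0.0438).

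In controls, most of the other pathway genes that were called between the fractions were lower in the ACSA-2 fraction. Of the 25 other Hippo genes 1 was higher and 7 were lower in ACSA-2 than in CD11b (32%, against 26.7% of all genes), with a median log2 fold change of -0.39. Dchs1, a protocadherin upstream of the pathway, was the higher one (27.8 ± 8.24 against 3.91 ± 1.71 CPM, SD, n = 3, adjusted p = 0.00265). The lower ones were Mob1a (log2 fold change -2.13), Csnk1e (-2.12), Taok3 (-1.67), Vgll4 (-1.67), Stk4 (-1.59), Csnk1d (-1.51) and Rassf1 (-1.14). Among the 21 target genes 6 were called (28.6%), a share near the 26.7% of all genes. Fjx1 (5.79), F3 (5.33), Axl (3.78) and Crim1 (1.60) were higher and the kinase Nuak2 (-1.81) and Asap1 (-1.19) lower. The 4 higher target genes, Dchs1, Mob1a, Taok3, Vgll4 and Csnk1d were called in all 12 fits that left out 1 library, whereas Nuak2 was called in 10, Csnk1e in 9, Rassf1 in 8, Stk4 in 7 and Asap1 in 5 of them.

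The genes with the pattern most like that of Yap1 over the 12 libraries were Cx3cl1, Lrp8, Bcar1, Timp3 and Dbn1. Likeness was the root mean square difference of log2 CPM, each gene centred on its own mean, and it was 0.39 to 0.44 for these 5 of 18601 genes. It also covers the split of Yap1 between choroid plexus-rich (28.8 to 43.7 CPM) and other CD11b libraries (3.47 to 5.86 CPM). Whether likeness reflects shared control or shared cell content was not tested. Bcar1 is an adaptor protein of focal adhesions and Cx3cl1 the ligand of a microglial receptor. Of the Hippo genes Wwtr1 stood nearest to Yap1, at rank 552 with 0.86, followed by Amot at rank 831 with 0.93. Nf2 (rank 12810) and Tead1 (rank 12928) were the farthest.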

How the data were processed

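The authors deposited raw read counts by Ensembl gene, from full-length cDNA amplified by PCR, without molecular identifiers. Per the labels and the study's methods, the authors trimmed the reads with cutadapt 1.10 (at least 40 bases kept), aligned them to mm10 with STAR 2.5.3 and counted uniquely aligned reads with HTSeq 0.6.1p1. The strand setting is not given in the sources used here. Unnamed empty columns (25) were not used.

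Each fraction was tested with edgeR 4.0.16 (TMM, filterByExpr, robust quasi-likelihood test) in R 4.3.3. The difference between fractions and the interaction came from a fit of all 12 libraries over 25442 shared genes. The SE is the log2 fold change over the square root of the F statistic. Alternatives were DESeq2 1.42.0, limma-voom (limma 3.58.1), median-of-ratios scaling, no filter, length and GC trends removed by an offset (mgcv 1.9.3), other library sets and each library left out. Scripts were tested on simulated data. Replicates differed beyond sampling noise (chi-square per degree of freedom 51.8 to 1248 for 12 pairs). Adjusted p values are Benjamini-Hochberg values over all tested genes. Gene positions are from GENCODE M21 (GRCm38). Figures used matplotlib 3.10.9.

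The members, gene lists and 12 marker lists were chosen with earlier results of these data known. Named genes were the members, Adora2a, Cdk6, list genes called in any of the 4 comparisons, the 3 most abundant of each list in each fraction, the most abundant gene of each marker list, and the 5 genes most like Yap1. Ccn2, Dock5, Tead4, Pdgfra, Gpr17, Flt1, Pecam1, Kdr, Ly6c1, Slco1a4, Emcn, Cdh5, Tek, Abcc9, Col3a1, Atp1b2, Aqp4, Gfap, Sall1, Sostdc1, Kl, Clic6 and Otx2 fall outside this rule and were named after their values were seen. Marker lists not given in the report were, as summed CPM in the ACSA-2 and CD11b libraries, border macrophages (51.4 to 92.7 and 47.5 to 236), ependymal cells (437 to 1693 and 33.7 to 314), neurons (9.47 to 70.0 and 3.27 to 93.0), oligodendrocytes (39.4 to 67.8 and 78.2 to 116) and erythrocytes (601 to 1434 and 56.7 to 5985).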

Additional observations from a re-analysis of the deposited data

Results flagged for a closer look

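Axl differed between the fractions in its response to the vector. Its log2 fold change with A2A was -1.33 in the ACSA-2 and 2.08 in the CD11b fraction, and the interaction was -3.44 ± 0.44 (SE, edgeR adjusted p = 0.0438 over 18602 genes, 3 libraries per group). All 3 AAV-A2A libraries were below the controls in the ACSA-2 fraction and all 3 were above them in the CD11b fraction. The adjusted p was 5.63e-10 with DESeq2, 0.0276 with limma-voom, 0.0492 with median-of-ratios scaling and 0.0436 without a filter. It was 0.168 with length and GC trends removed and 0.144 without the choroid plexus-rich libraries. Leaving out 1 library gave 0.00544 to 0.169, and the call held without A2A-309 (0.0433), GFP-2331 (0.00544) or A2A-2343 (0.00893) and ended without any of the other 9.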

How the results depend on the processing

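No paired analysis was made, because the labels number the 2 fractions differently and do not say which libraries share an animal. The fits treat all libraries as independent. Counts of called genes are given in the order Hippo genes, other pathway genes, target genes where they moved. In the ACSA-2 fraction they were 2, 0 and 2. DESeq2 gave 1 other gene and 4 targets, no filter gave 1 other gene, length and GC trends removed gave 1 Hippo gene and 1 other gene, the 12-library fit gave 0 Hippo genes and 1 target (Crim1, without Axl), and leaving out 1 library gave 0 to 1 Hippo genes. In the CD11b fraction DESeq2 gave 1 other gene and 2 targets in place of 0. Between controls (2, 8 and 6), DESeq2 gave 11 targets, leaving out the choroid plexus-rich libraries gave 5 Hippo genes and 10 targets, and leaving out 1 library gave 1 to 2, 5 to 9 and 4 to 8. For the interaction (0, 0 and 1), DESeq2 gave 1 other gene and 4 targets, length and GC trends removed and leaving out the choroid plexus-rich libraries gave 0 targets each, and leaving out 1 library gave 0 to 3 other genes and 0 to 4 targets. Over all genes, 553 calls in the ACSA-2 fraction became 1277 with DESeq2 (79.7% of them lower, against 94.8%), 156 in the 12-library fit and 272 to 448 without 1 library. The 0 calls of the CD11b fraction became 502 with DESeq2 and 3 without the choroid plexus-rich libraries. The 75 calls of the interaction became 1740 with DESeq2, 10 with median-of-ratios scaling, 0 with length and GC trends removed or without the choroid plexus-rich libraries and 0 to 1286 without 1 library. The causes were not tested.

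Signs turned only in log2 fold changes that were not called. With length and GC trends removed these were, in the ACSA-2 fraction, Lats2 (0.038), Amotl2 (0.084), Wwc1 (0.062) and Csnk1d (0.17), in the CD11b fraction Csnk1e (-0.022), between controls Lats1 (0.20) and in the interaction Yap1 (0.31) and Amot (0.37). That correction moved the median of all genes in the CD11b fraction from -0.05 to 0.08. Without the choroid plexus-rich libraries they were, in the CD11b fraction, Yap1 (0.44), Amot (0.25), Stk3 (0.15), Csnk1e (-0.35) and Ccn1 (0.0039), between controls Cdk6 (-0.89) and in the interaction Stk3 (-0.062). Wwtr1 turned in the interaction with DESeq2 (0.049) and median-of-ratios scaling (0.064). Leaving out 1 library gave ranges across 0 in the ACSA-2 fraction for Lats2 (-0.49 to 0.33), Csnk1d (-0.19 to 0.088), F3 (-0.047 to 0.44) and Fjx1 (-0.093 to 0.38), in the CD11b fraction for Amot (-2.05 to 0.75), Stk3 (-0.33 to 0.060), Sav1 (-0.011 to 0.22), Cdk6 (-0.64 to 0.67) and Csnk1e (-0.043 to 1.35), between controls for Lats1 (-0.34 to 0.10) and Cdk6 (-0.27 to 0.93), and in the interaction for Yap1 (-0.87 to 1.20), Wwtr1 (-0.29 to 0.33), Amot (-1.65 to 0.998) and Stk3 (-0.022 to 0.42). With 3 libraries per group, and 3 of the 6 CD11b libraries rich in choroid plexus RNA, the SE of Yap1, Tead1 and Amot in that fraction was above 1 on the log2 scale.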
